A study of Mus musculus with 10 samples.

Results

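The kinetochore is the protein machine, built on the centromere of each chromosome, that holds microtubules of the spindle and pulls sister chromatids apart. The genes described here are 39 that encode its parts or load and guard the centromere. They were chosen by name, with earlier results of these data known. Each was read through the single gene symbol that the array platform gives a probe set. There was 1 probe set per gene, the one with the highest mean over the 10 arrays. Of the 39, 35 had such a probe set, out of 22180 genes in all. Hjurp and Oip5, which help to load centromeric histone, and Cenpu and Mis12, structural parts of the kinetochore, lay on probe sets assigned to several genes and were not used. All 35 measured genes passed the filter on dim genes, which kept 16635 genes with a mean above a log2 value of 4.58.

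The tissue was the lining of the nose, the respiratory epithelium, of mouse embryos at E16.5, a stage at which multiciliated cells form there. In the triple knockouts (TKO) both copies of 3 loci are deleted: miR-34a-/-, the miR-34b/c-/- cluster and the miR-449a/b/c-/- cluster. There were 5 TKO embryos, 2 female and 3 male, and 5 wild-type (WT) embryos, 4 female and 1 male. Epithelium was laser-captured from sections of formalin-fixed, paraffin-embedded embryos, and RNA from each embryo went on 1 Affymetrix array. The sources used here name neither strain background nor litter. All values are log2 values after RMA, a standard method of background correction, normalization and summary over probes. A change is TKO minus WT from a linear model (limma) with sex as a covariate, so it can differ a little from the difference of the 2 means.

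Of the deleted loci, the probe sets were clearly lower in TKO for Mir449c, which averaged 3.67 ± 0.49 on TKO arrays and 7.26 ± 0.28 on WT arrays (SD, n = 5 each), and for Mir449a, which averaged 5.41 ± 0.29 on TKO arrays and 7.20 ± 0.31 on WT arrays. Every TKO array was also below every WT array for Mir34b, at 5.49 ± 0.071 on TKO arrays and 5.76 ± 0.15 on WT arrays, and for Mir449b, at 11.8 ± 0.17 on TKO arrays and 12.2 ± 0.040 on WT arrays, by less. The Mir449b probe set stayed bright on the TKO arrays, and the source of that signal was not tested. Mir34a and Mir34c were dim in both genotypes. The arrays correlated with each other at 0.975 to 0.989 over all 41345 probe sets. Of the 11 epithelial markers measured, 3 rose in TKO, all genes of the multiciliated cell programme: Ccno by 0.76, Mcidas by 0.55 and Deup1 by 0.50 on the log2 scale; without WT array 3, 1 marker of the 11 passed. The general epithelial markers Krt8, at 11.6 on TKO and on WT arrays, and Epcam, at 8.68 on TKO arrays and 8.55 on WT arrays, did not pass the test. Foxj1 had a change of 0.21 and did not pass (limma adjusted p = 0.078). The other markers, none past the test, had changes of 0.031 for Krt18, -0.088 for Cdh1, -0.13 for Cyp2f2, -0.14 for Krt15 and -0.21 for Trp63. In females only 0 of the 11 markers passed, and 1 passed with the marker covariate described further on.

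The miRNAs of the deleted loci are one family that binds messenger RNAs through bases 2 to 8 of the mature miRNA, the seed. The 4 sequences below, from RefSeq (GRCm38.p6), are shown because they are among the regulators the TKO embryos lack. Those of miR-34c and miR-449b, from the same deleted loci, are not shown. The capitals mark the seed, GGCAGUG, which all 4 shown share.
mmu-miR-34a-5p: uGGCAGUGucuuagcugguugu
mmu-miR-34b-5p: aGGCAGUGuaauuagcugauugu
mmu-miR-449a-5p: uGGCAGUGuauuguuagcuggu
mmu-miR-449c-5p: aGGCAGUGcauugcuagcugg

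As background, the kinetochore is layered. CENP-A, a histone H3 variant, marks the centromere; an inner layer of CENP proteins sits on it all through the cell cycle; an outer layer of Knl1, Mis12 and Ndc80 complexes is added for mitosis and grips microtubules; and a fibrous corona with checkpoint proteins delays anaphase until every chromosome is attached. Many of these genes are transcribed mainly in late G2 and M phase, through repressor sites in their promoters that are relieved in dividing cells. In the airway, basal and other progenitor cells divide, whereas a cell that has left the cycle to make many cilia reuses part of the mitotic machinery.

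Of the 35 measured genes, 17 were higher in TKO, none was lower and 18 did not pass an adjusted p of 0.05 (limma, Benjamini-Hochberg over all 16635 genes). Over all genes tested, 4.39% were higher and 1.12% were lower by the same rule. At an unadjusted p under 0.05, 30 of the 35 were higher and 0 lower, against 13.2% higher and 7.72% lower over all genes tested. The fitted change was above 0 for all 35 genes, and for 49.8% of all genes tested. It fell under 0 for Cenpb without TKO array 3, for Cenph without WT array 3 and in females only, and for Cenpq with the marker covariate described further on, the lowest being -0.024. The median change was 0.385 over the 35 genes and -0.0005 over all genes tested. The 17 genes were higher by 1.31- to 1.70-fold, with a median of 1.42-fold. Every TKO array lay above every WT array for 15 of the 35 genes, against 5.54% of all genes; the reverse order was found for none of them, against 2.07% of all genes. For a single gene with no overlap of 5 arrays against 5, a two-sided exact permutation test gives 0.0079, the smallest p it can give. RNA from a piece of tissue cannot tell more dividing cells from more of these transcripts in each cell.

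The count of 17 depended on single arrays. It was 4 without WT array 3, 6 without TKO array 3 and 10 without TKO array 2, and lay between 12 and 18 without any other array. The share of all genes called higher fell with it, to 1.15% without WT array 3, 1.48% without TKO array 3 and 3.17% without TKO array 2. WT array 3 is the only male WT embryo, so without it only female embryos inform the genotype effect. The median change without WT array 3 was 0.347 and without TKO array 3 was 0.364. Cenpf, Knl1 and Zwilch passed in all 10 of these fits.

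**Figure D1:**
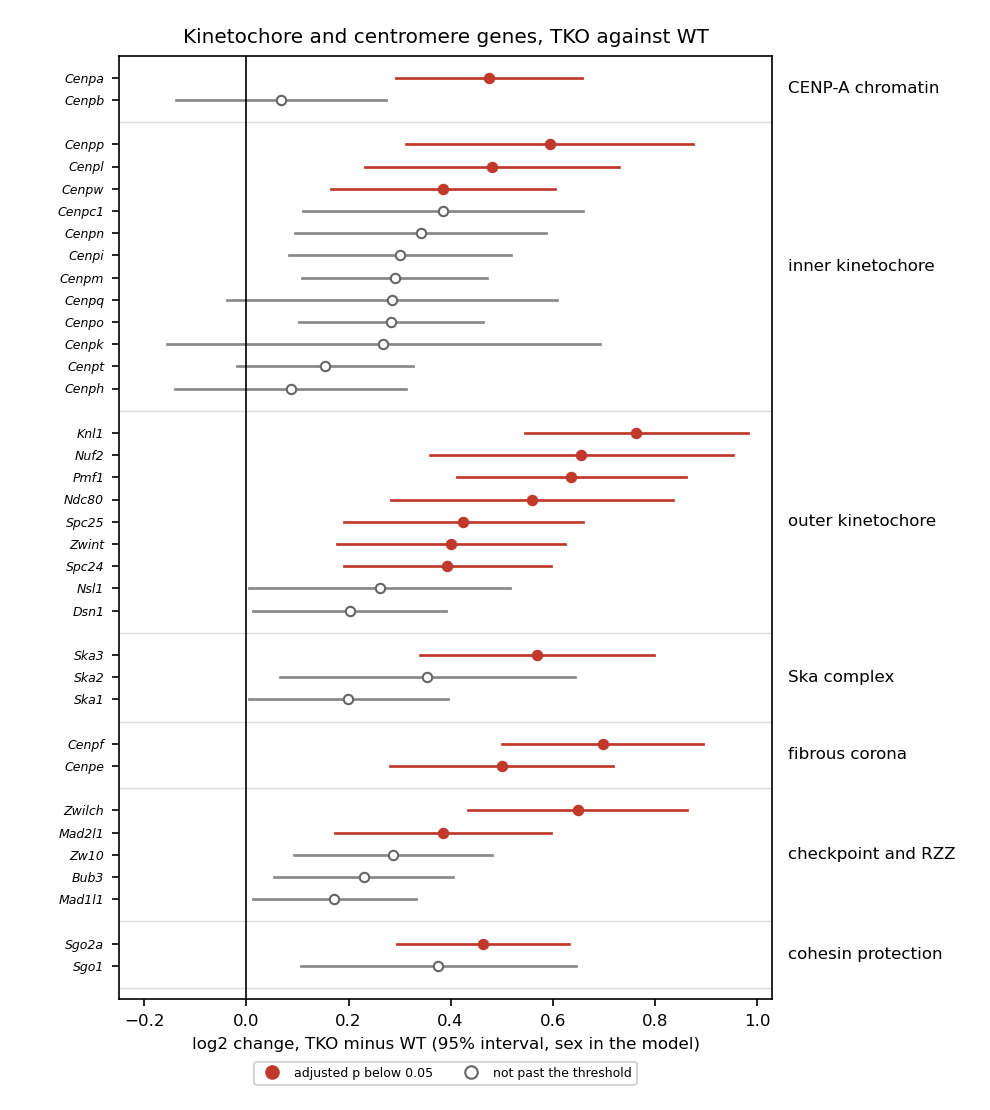
Fitted log2 change, TKO minus WT, with its 95% interval for the 35 measured genes, grouped by role and ordered by size within each role; filled red points passed an adjusted p of 0.05. All 35 points lie right of 0, and the outer kinetochore holds 7 of the 17 filled points.

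In the chromatin of the centromere, 1 of 2 genes measured rose. Cenpa, the histone variant itself, had 7.70, 7.72, 7.93, 7.79 and 7.70 on the TKO arrays and 7.38, 7.34, 7.27, 7.14 and 7.46 on the WT arrays. Every TKO array was above the highest WT array, and TKO array 3 stood highest. The change was 0.48 (SE 0.083, limma adjusted p = 0.0078), or 1.39-fold. The call was lost without WT array 3 or without TKO array 3. Cenpb, which binds a repeat in centromeric satellite DNA, had a change of 0.068 (limma adjusted p = 0.75), near 0.

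Of the 12 inner kinetochore genes measured, 3 rose, with a median change of 0.30 over the 12. Cenpp, a subunit of the CENP-O group, had 7.24, 7.52, 7.66, 7.77 and 7.17 on the TKO arrays and 6.77, 7.01, 6.83, 6.82 and 6.96 on the WT arrays. The TKO arrays were spread more widely than the WT arrays, with TKO arrays 1 and 5 lowest, yet did not overlap them. Its change was 0.59 (SE 0.13, limma adjusted p = 0.021), or 1.51-fold, and was not past the threshold without WT array 3 or TKO array 3. The other 2 were Cenpl, which pairs with Cenpn on the CENP-A nucleosome, with a change of 0.48 (adjusted p = 0.031), and Cenpw, a histone-fold partner of Cenpt, with 0.39 (adjusted p = 0.047). Cenpl arrays overlapped between genotypes and Cenpw arrays did not. Each of these calls was lost in 5 or more of the 10 fits that leave out 1 array.

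The 9 other inner genes did not pass. Cenpc1, the scaffold that links CENP-A chromatin to the outer layer, had a change of 0.39 with a larger spread (SE 0.13, limma adjusted p = 0.10). Cenpn, Cenpi, Cenpm, Cenpo, Cenpq and Cenpk lay between 0.27 and 0.34, Cenpt, the second anchor of the outer layer, was at 0.15, and Cenph was at 0.087. The 95% interval of Cenpt, the histone-fold partner of Cenpw, ran from -0.018 to 0.33 in limma.

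The outer kinetochore, the layer that grips microtubules, had the most genes past the test: 7 of the 9 measured rose, with a median change of 0.42. The count was 2 without WT array 3 and 3 without TKO array 1, 2 or 3. It was 1 with the marker covariate described further on and 0 in females only. Knl1, the scaffold that recruits Bub proteins of the checkpoint, had 8.03, 8.20, 8.25, 8.16 and 8.06 on the TKO arrays and 7.26, 7.60, 7.38, 7.15 and 7.48 on the WT arrays. The lowest TKO array stood well above the highest WT array. Its change, 0.76 (SE 0.10, limma adjusted p = 0.0016), or 1.70-fold, had the highest point estimate of the 35.

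Pmf1, a subunit of the Mis12 complex that joins the inner to the outer layer, had 7.82, 7.87, 7.99, 7.66 and 7.71 on the TKO arrays and 7.35, 7.50, 7.09, 7.00 and 7.26 on the WT arrays. The groups did not overlap, and WT arrays 3 and 4 were the lowest. The change was 0.64 (SE 0.10, limma adjusted p = 0.0053), or 1.55-fold, and the adjusted p was 0.053 without WT array 3. The 2 other measured subunits of that complex, Nsl1 at 0.26 and Dsn1 at 0.20, did not pass the test (adjusted p = 0.23 and 0.21).

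All 4 subunits of the Ndc80 complex, the rod that binds the microtubule directly, rose. Nuf2 had 7.39, 7.32, 7.49, 7.15 and 7.10 on the TKO arrays and 6.70, 6.74, 6.77, 6.24 and 6.92 on the WT arrays. WT array 4 stood far below the other WT arrays, and the groups did not overlap. The change was 0.66 (SE 0.14, limma adjusted p = 0.017), or 1.58-fold, and was lost without TKO array 1 or TKO array 3. Its partner at the microtubule end of the rod, Ndc80, had 7.78, 7.70, 7.48, 7.65 and 7.39 on the TKO arrays and 7.41, 7.21, 6.88, 6.81 and 7.16 on the WT arrays. TKO array 5 fell just under WT array 1, the only crossing. The change was 0.56 (SE 0.13, limma adjusted p = 0.025), or 1.47-fold, and was lost without WT array 3, TKO array 1 or TKO array 2.

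Spc24 and Spc25 form the other end of the rod, which docks on the inner kinetochore. Spc24 had 7.11, 6.94, 7.20, 7.03 and 6.86 on the TKO arrays and 6.71, 6.89, 6.59, 6.86 and 6.50 on the WT arrays. TKO array 5 lay among the higher WT arrays, so the groups overlapped. Its change was 0.39 (SE 0.093, limma adjusted p = 0.031), or 1.31-fold, and that of Spc25 was 0.42 (adjusted p = 0.042) with no overlap. Zwint, which ties Knl1 to the RZZ complex, rose by 0.40 (adjusted p = 0.043) with overlapping arrays. The calls of Spc24, Spc25 and Zwint were each lost in at least 5 of the 10 fits that leave out 1 array.

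**Figure D2:**
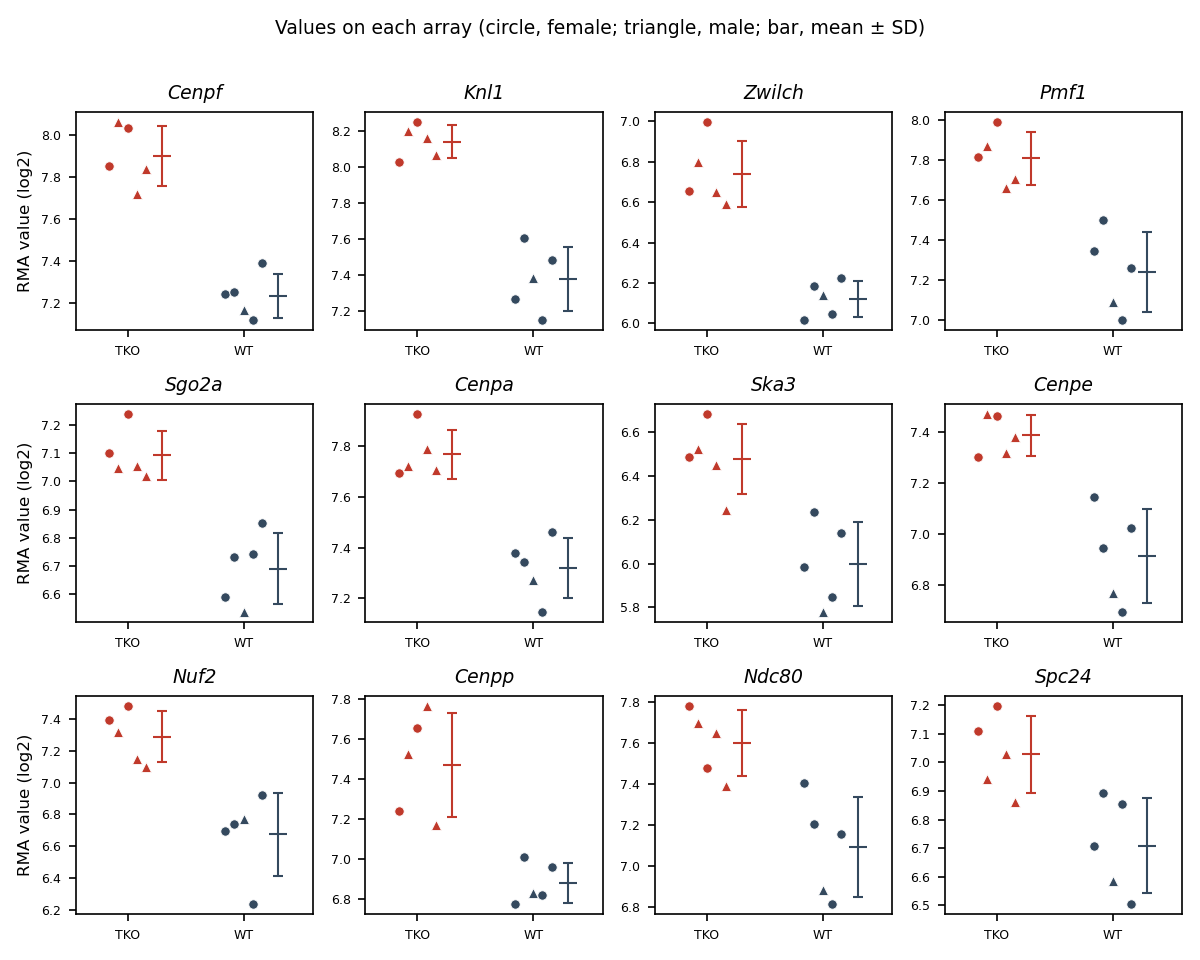
Log2 value on each array for the 12 genes with the smallest p among those past the test, TKO left (red) and WT right (blue); circles are female and triangles male embryos, bars give mean ± SD (n = 5 each), and each panel has its own axis. The genotypes do not overlap in 10 of the panels and cross in those of Ndc80 and Spc24.

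Of the Ska complex, which follows the ends of shrinking microtubules together with Ndc80, 1 of 3 genes rose. Ska3 had 6.49, 6.53, 6.69, 6.45 and 6.24 on the TKO arrays and 5.98, 6.24, 5.78, 5.85 and 6.14 on the WT arrays. TKO array 5 and WT array 2 were equal to 2 decimals, and WT array 2 was lower only in the next decimal. The change was 0.57 (SE 0.10, limma adjusted p = 0.0098), or 1.48-fold, and was lost without WT array 3 or TKO array 3. Ska2 had a change of 0.35 and Ska1 of 0.20, and neither passed (limma adjusted p = 0.15 and 0.23). Ska2 was the only gene of the 35 with another probe set of its own, which averaged 5.91 ± 0.17 on TKO arrays and 5.65 ± 0.098 on WT arrays (SD, n = 5 each), in the same direction as the one used.

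Both genes of the fibrous corona rose. Cenpf, a large coiled-coil protein that accumulates in G2 and binds dynein regulators, had 7.85, 8.06, 8.03, 7.72 and 7.84 on the TKO arrays and 7.24, 7.25, 7.17, 7.12 and 7.39 on the WT arrays. The WT arrays lay close together, and every TKO array was clear of them. The change was 0.70 (SE 0.090, limma adjusted p = 0.0015), or 1.62-fold, with the smallest p of the 35.

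Cenpe, the kinesin that carries chromosomes to the spindle equator, had 7.30, 7.47, 7.46, 7.32 and 7.38 on the TKO arrays and 7.14, 6.94, 6.77, 6.69 and 7.02 on the WT arrays. The TKO arrays were tight and the WT arrays wide, without overlap. The change was 0.50 (SE 0.10, limma adjusted p = 0.014), or 1.41-fold, and was lost without WT array 3 or TKO array 3.

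Among the 5 genes of the spindle checkpoint and of the RZZ complex, which brings checkpoint proteins and dynein to the kinetochore, 2 rose. Zwilch, an RZZ subunit, had 6.65, 6.80, 7.00, 6.65 and 6.59 on the TKO arrays and 6.02, 6.18, 6.14, 6.05 and 6.23 on the WT arrays. All TKO arrays stood above the narrow band of WT arrays. The change was 0.65 (SE 0.098, limma adjusted p = 0.0039), or 1.57-fold.

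Zw10, another RZZ subunit, had a change of 0.29 that missed the threshold (SE 0.089, limma adjusted p = 0.086), although its arrays did not overlap. It lies 2.02 Mb from the deleted Mir34b and Mir34c loci on chromosome 9 and was the only one of the 35 within 5 Mb of a deleted locus (GRCm38.p6). Mad2l1, the checkpoint protein that holds back the anaphase-promoting complex, rose by 0.39 (adjusted p = 0.041), a call kept in 3 of the 10 fits that leave out 1 array. Its partner Mad1l1 had 0.17 and Bub3, a shared Bub-protein adaptor, had 0.23, and neither passed (limma adjusted p = 0.20 and 0.13).

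The shugoshins guard cohesin at the centromere until anaphase, and 1 of 2 rose. Sgo2a had 7.10, 7.05, 7.24, 7.05 and 7.02 on the TKO arrays and 6.59, 6.73, 6.54, 6.74 and 6.85 on the WT arrays. TKO array 3 was highest, WT array 5 came nearest to the TKO arrays, and there was no overlap. The change was 0.46 (SE 0.077, limma adjusted p = 0.0062), or 1.38-fold, and the adjusted p was 0.067 without WT array 3. Sgo1 had 0.38 (SE 0.12, limma adjusted p = 0.10) with no overlap of its arrays. It and Zw10 were the 2 genes whose arrays did not overlap but whose change did not pass.

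The 18 genes that missed the threshold had changes of 0.068 to 0.39, with a median of 0.28, and 13 of them had an unadjusted p under 0.05. Averaged over the 18 after centring each gene on its 10-array mean, the TKO arrays lay between 0.0069 and 0.21 and the WT arrays between -0.23 and 0.026. Only WT array 5 reached into the TKO range. Missing the threshold did not show that these genes were unchanged.

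The arrays of one genotype differed from each other across most of the genes at once. The mean over all 35 centred genes was 0.15, 0.23, 0.28, 0.11 and 0.10 on TKO arrays 1 to 5, and -0.12, -0.10, -0.29, -0.31 and -0.045 on WT arrays 1 to 5. TKO array 3 held the highest value of all 10 arrays for 17 of the 35 genes and TKO array 2 for 9. WT array 4 held the lowest for 14 and WT array 3 for 13. Of the 35 genes, 25 to 34 lay above their 10-array median on each TKO array, and 0 to 13 on each WT array. WT array 5, the highest for 17 genes among the WT arrays, was the one with 13. The SD was larger among WT arrays than among TKO arrays for 25 of the 35 genes, or 71.4%, against 52.6% of all genes tested.

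**Figure D3:**
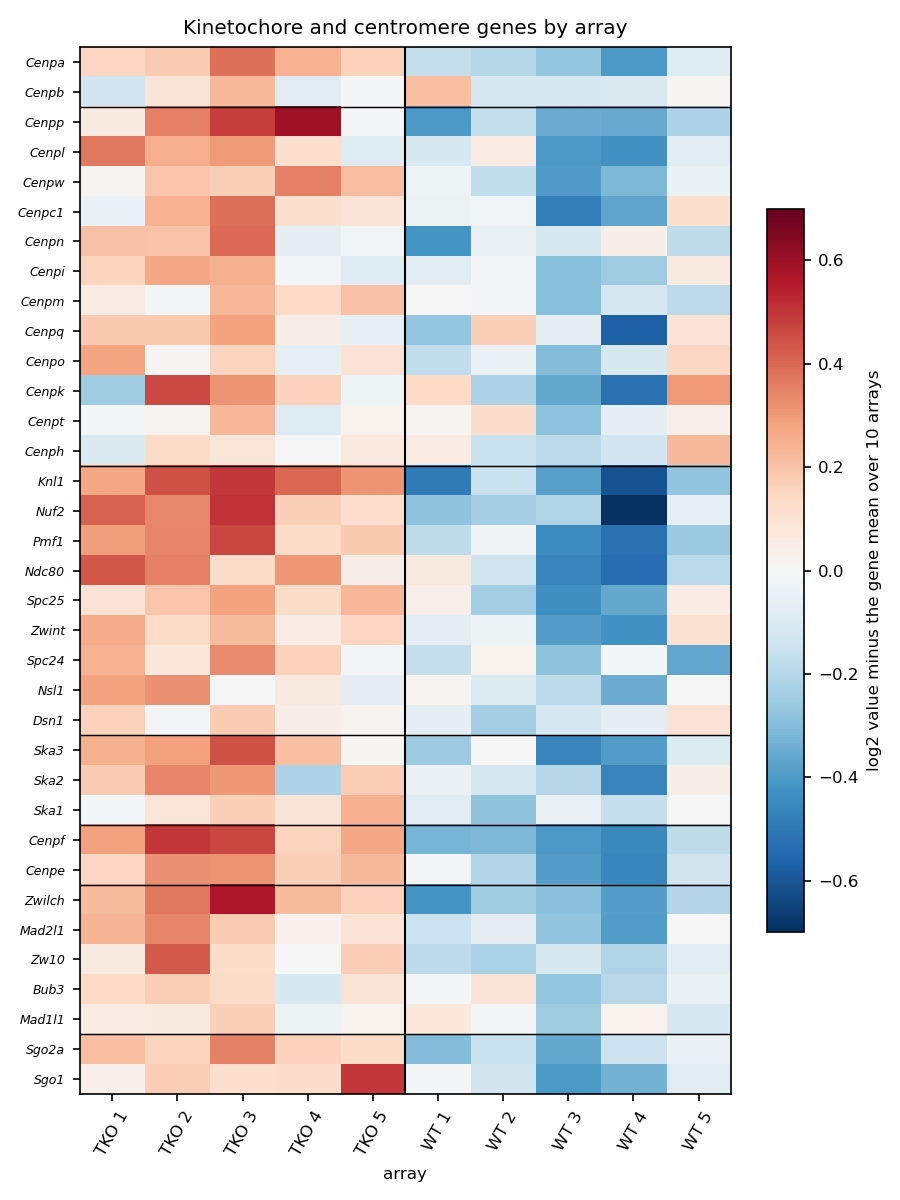
Log2 value minus the gene's mean over the 10 arrays for the 35 genes (rows, by role and then by change), TKO arrays left and WT arrays right; red is above and blue below the gene's mean. TKO array 3 is the reddest column, with the highest value for 17 genes, and WT arrays 3 and 4 are the bluest, with the lowest for 13 and 14.

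Sex was unequal between the genotypes. None of the 35 genes passed the test for sex (limma, male minus female), and 2 had an unadjusted p under 0.05. The median was -0.11, with 31 of the 35 below 0. The share of all genes below 0 for sex was not counted, and the WT males are 1 embryo. Without sex in the model 15 of the 35 were higher in TKO, and the median change was 0.321, against 0.385 with sex. In the 6 female embryos alone, 2 TKO and 4 WT, none passed. Of the 35 genes, 19 had an unadjusted p under 0.05 there, all higher, and the median change was 0.347. Among all genes tested, 0.313% passed as higher in the females and 9.27% were higher at an unadjusted p under 0.05. In the females both TKO arrays lay above all 4 WT arrays for 27 of the 35 genes, against 14.8% of all genes tested. The males, with 1 WT embryo, were not tested alone.

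Markers of cells outside the epithelium differed between the arrays too. One score averaged the centred markers of mesenchyme, of endothelium, of muscle, of cartilage, of leukocytes and of glia. It was -0.22, -0.045, -0.46, 0.19 and 0.16 on TKO arrays 1 to 5, and 0.21, -0.37, 0.36, 0.21 and -0.041 on WT arrays 1 to 5. TKO array 3, highest for the kinetochore genes, had the lowest score, and WT array 3, among the lowest for them, had the highest. WT array 2, with the lowest score among WT arrays, had a kinetochore mean of -0.10, above those of WT arrays 1, 3 and 4. TKO arrays 4 and 5, with the highest scores among TKO arrays, had the lowest kinetochore means among them, 0.11 and 0.10. Of these markers, 1 of 8 for mesenchyme fell, Col3a1 by 0.48 (limma adjusted p = 0.023), and 1 of 6 for skeletal muscle, Ttn by 0.56 (limma adjusted p = 0.048); neither list had a call without WT array 3. The change was below 0 for all 8 mesenchyme markers (median -0.44, 4 lower at an unadjusted p under 0.05), all 6 muscle markers (median -0.65, 6 lower) and all 4 endothelial markers tested (median -0.38, 1 lower). The median was -0.37 for the leukocyte markers, 0.038 for cartilage and -0.036 for glia. None passed among the 4 endothelial, 5 cartilage, 5 leukocyte and 4 glial markers tested. These changes come from the model with sex and depended on it. Without sex in the model the medians were -0.16 for mesenchyme, -0.48 for muscle and -0.14 for endothelium. They were 0.062 for leukocytes, 0.12 for cartilage and -0.27 for glia. The mesenchyme score ran from -0.97 to 0.63 on TKO arrays and from -0.53 to 0.54 on WT arrays, and the muscle score from -0.59 to 0.27 on TKO arrays and from -0.43 to 0.90 on WT arrays. The endothelial markers Tek and Cldn5, the cartilage marker Matn1 and the leukocyte marker Ptprc were below the filter.

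Markers of olfactory neurons, whose epithelium borders the respiratory one, were not in that score. Their mean after centring was 0.61, -0.75, 0.13, -0.45 and -0.44 on TKO arrays 1 to 5, and 0.68, -0.075, -0.68, -0.46 and 1.43 on WT arrays 1 to 5. Among WT arrays it was highest on array 5 and lowest on arrays 3 and 4, as was the kinetochore mean, whereas TKO array 2, high for the kinetochore genes, had the lowest. None of the 7 olfactory neuron markers passed, with a median change of 0.041, and their part in the result was not tested.

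With that score as a covariate beside sex, 2 of the 35 genes passed, Cenpf and Knl1, 21 had an unadjusted p under 0.05, and the median change was 0.29 with 34 of 35 above 0. The same model called 0.637% of all genes higher, and 7.62% were higher at an unadjusted p under 0.05. TKO arrays 1, 2, 4 and 5 had scores within the range of the WT arrays, and TKO array 3 had one below it. Kinetochore means were above those of all WT arrays on all 5 TKO arrays, and were lowest among these on TKO arrays 4 and 5. The part of tissue composition in the change was not tested further.

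**Figure D4:**
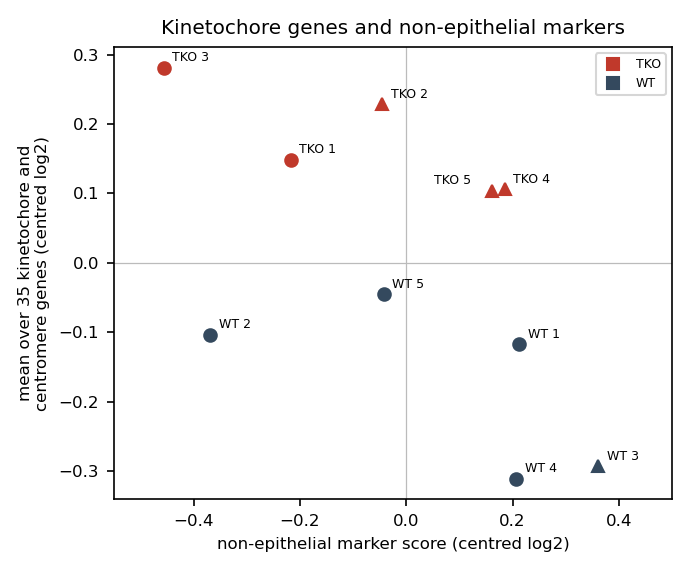
Mean of the 35 centred kinetochore and centromere genes (vertical, log2) against the score of the non-epithelial markers (horizontal, log2), 1 point per array, circles female and triangles male. All 5 TKO arrays lie above all 5 WT arrays, while the scores of the genotypes overlap, from -0.46 to 0.19 in TKO and from -0.37 to 0.36 in WT.

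A further list of 21 kinetochore and centromere genes, also chosen with earlier results of these data known, was read in the same way. Of the 20 tested, 7 rose, or 35%, against 4.39% of all genes tested, and none fell. The median change was 0.27, with 18 above 0, or 90%, against 49.8% of all genes tested. The 6 with the smallest p were Spag5, or astrin, and Knstrn, its partner at attached kinetochores, with changes of 0.56 (limma adjusted p = 0.0091) and 0.50 (0.012), Cenpv with 0.41 (0.010), Ercc6l, the helicase PICH of ultrafine anaphase bridges, with 0.58 (0.011), Mad2l1bp, or p31comet, which opposes Mad2, with 0.47 (0.023), and Mis18a, which prepares the centromere for new CENP-A, with 0.38 (0.043). The seventh was Bub1b, or BubR1, a checkpoint protein, with 0.43 (limma adjusted p = 0.046). The checkpoint kinases Bub1, with 0.33, and Ttk, with 0.24, did not pass (limma adjusted p = 0.10 and 0.24). The count was 0 without WT array 3, 1 without TKO array 3 and 3 without TKO array 1. It was 0 once the score of non-epithelial markers was a covariate, and 0 in females only. The TKO arrays averaged -0.00053 to 0.18 and the WT arrays -0.20 to 0.021 over these genes after centring.

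Of 13 mitotic kinases and chromosomal passenger genes, 6 rose, or 46.2%, against 4.39% of all genes tested. The median change was 0.39, close to that of the kinetochore genes. Cdca8, or borealin, which brings Aurora B to the centromere, averaged 8.32 ± 0.12 on TKO arrays and 7.36 ± 0.099 on WT arrays (SD, n = 5 each), a change of 0.94 (limma adjusted p = 0.00023). Haspin, the kinase that marks histone H3 for that complex, averaged 5.78 ± 0.083 on TKO arrays and 5.31 ± 0.058 on WT arrays, a change of 0.53 (limma adjusted p = 0.0031). Aurka rose by 0.58 (limma adjusted p = 0.0010). Aurkb, Incenp and Birc5, also of the passenger complex, had changes of 0.24, 0.27 and 0.51 and did not pass (limma adjusted p = 0.17, 0.24 and 0.067). The count ranged from 3 to 7 when 1 array was left out, with 3 without WT array 3, TKO array 1 or TKO array 3. It was 2 with the non-epithelial score in the model and 1 in females only.

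Condensin and topoisomerase II compact and untangle chromosomes. Of 11 genes in that list, which also holds Mki67 and Kif4, 3 rose, or 27.3%, against 4.39% of all genes tested. The median change was 0.29, with 9 above 0. The count was 1 without WT array 3, 1 with the non-epithelial score and 0 in females only. Ncaph2, a condensin subunit, was at -0.21 and Top2b at -0.090, and neither passed (limma adjusted p = 0.12 and 0.66). For Ncaph2 every TKO array was below every WT array. Top2a, the enzyme that removes links between sister chromatids, averaged 9.46 ± 0.11 on TKO arrays and 8.70 ± 0.16 on WT arrays (SD, n = 5 each), a change of 0.77 (limma adjusted p = 0.0010). Genes of DNA replication act in S phase, before a kinetochore is built for mitosis. Of 37 tested, 1 rose, Gins1, by 0.79 (limma adjusted p = 0.022), and the median change was 0.11. That is 2.70% of the list, against 4.39% of all genes tested. The change was above 0 for 29 of the 37, or 78.4%, against 49.8% of all genes tested. At an unadjusted p under 0.05 in limma, 6 were higher and 0 lower. Without WT array 3 or without TKO array 3 the count past an adjusted p of 0.05 was 0. Mean replication values ran from -0.057 to 0.072 on TKO arrays and from -0.14 to 0.078 on WT arrays, so the genotypes overlapped. The replication list was not tested against the kinetochore genes.

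**Figure D5:**
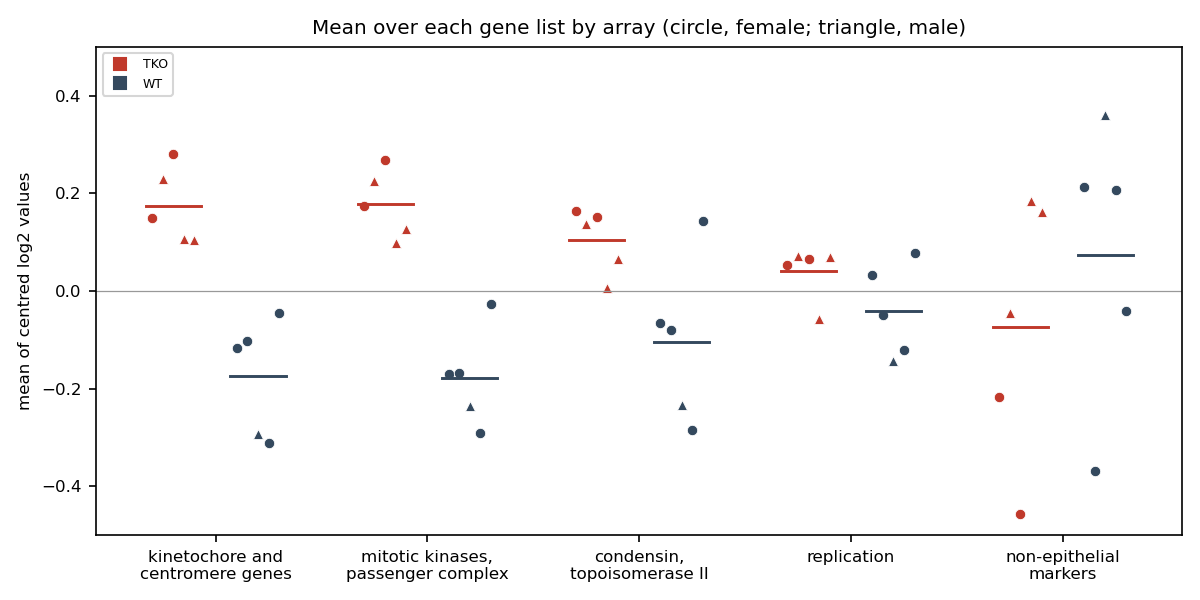
Mean of the centred log2 values over each gene list on each array, TKO (red) left of WT (blue) in each list; circles female, triangles male, lines the mean of 5 arrays. TKO and WT arrays separate for the kinetochore genes and the mitotic kinases, and overlap for condensin, replication and the non-epithelial markers.

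The promoters of these genes were searched for letters of sites that are known, from work on cell cycle genes, to bind repressors and activators of their transcription. The motifs were the cell cycle homology region (CHR), TTTGAA, the CCAAT box, CCAAT, and an E2F site, GCGGGAA, on both strands from 250 bases before to 50 bases after the start in RefSeq. The motifs were searched independently of each other. The 35 genes of the 39 with a promoter in RefSeq did not include Spc24, Zwilch, Nsl1 and Ska1. The CHR letters stood in 14 of these 35 promoters, or 40%, against 12.5% of 12922 promoters of all genes tested.

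By call, CHR letters stood in 9 of 15 promoters of genes that rose and in 3 of 16 of genes that did not pass. They began within 50 bases of the start in 7 of the 9, in 2 of the 3 and in both of the genes with no probe set of their own that hold them. CCAAT stood in 60% of promoters of genes that rose, 62.5% of those that did not pass and 37.6% of all. The E2F letters stood in 13.3%, 50% and 7.47% in the same order. These shares are descriptions, and a match is not a bound site. The 3 promoters below belong to the genes with the smallest p among those that rose and hold the CHR; they are shown so that the motif can be seen in place. Capitals mark TTTGAA and CCAAT. They are RefSeq sequences (GRCm38.p6), read 5′ to 3′ on the strand of the gene, for Cenpf at chr1:189688037-189688336 on the minus strand, Knl1 at chr2:119046869-119047168 on the plus strand and Pmf1 at chr3:88410348-88410647 on the minus strand.
Cenpf: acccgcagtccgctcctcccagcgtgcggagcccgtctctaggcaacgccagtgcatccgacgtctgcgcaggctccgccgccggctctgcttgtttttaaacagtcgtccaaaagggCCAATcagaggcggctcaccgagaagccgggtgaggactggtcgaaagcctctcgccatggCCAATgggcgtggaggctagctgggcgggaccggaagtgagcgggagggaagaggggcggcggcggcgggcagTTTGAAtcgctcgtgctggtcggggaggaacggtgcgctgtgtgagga
Knl1: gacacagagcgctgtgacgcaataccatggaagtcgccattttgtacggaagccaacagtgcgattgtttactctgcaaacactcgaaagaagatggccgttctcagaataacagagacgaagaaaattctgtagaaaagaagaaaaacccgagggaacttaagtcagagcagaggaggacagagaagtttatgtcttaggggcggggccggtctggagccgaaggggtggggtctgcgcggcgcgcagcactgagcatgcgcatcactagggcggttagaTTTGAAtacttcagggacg
Pmf1: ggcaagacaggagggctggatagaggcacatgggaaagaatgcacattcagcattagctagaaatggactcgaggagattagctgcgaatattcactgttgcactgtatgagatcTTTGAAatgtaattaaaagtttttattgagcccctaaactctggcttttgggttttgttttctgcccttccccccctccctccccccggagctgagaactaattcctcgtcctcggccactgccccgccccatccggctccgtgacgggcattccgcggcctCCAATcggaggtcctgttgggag

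Counted from the transcription start, the CHR letters began at base 3 in Cenpf, at base 32 in Knl1 and at base -135 in Pmf1. Cenpf held CCAAT at -132 and -71, upstream of the start, and Pmf1 held it at 28; Knl1 held none in this window. No measurement of binding was made here.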

How the data were processed

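RNA from the captured epithelium of 10 embryos was measured on 1 Affymetrix array each. The authors deposited log2 values per probe set, made with Affymetrix Expression Console and RMA per the submitters' processing notes; array intensities before RMA were not used here. Of 41345 probe sets in the deposited table, 23521 had 1 gene symbol in the platform annotation, 1814 several and 16010 none; symbols were checked through RefSeq gene identifiers (23328 matched). From the 22180 genes, those under the 25th percentile of mean level (4.58) were left out, and TKO minus WT was fitted with limma 3.58.1 in R 4.3.3 (lmFit, eBayes with an intensity trend, sex as covariate, two-sided, Benjamini-Hochberg over 16635 genes, threshold 0.05). Scripts were tested on simulated data. With 5 arrays per genotype, their number limits the precision.

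The genes and lists were chosen with earlier results of these data known. Genes given on every array are the 12 with the smallest p among those past the threshold; of the further kinetochore list, up to 6 past the threshold; promoters, the 3 with the smallest p that hold the CHR. Embryos are the replicates; the sources used here do not name litters. Alternatives changed covariates, filter, scaling, variance model, array weights, probe sets and samples. Figures were drawn with matplotlib 3.10.9.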

Additional observations from a re-analysis of the deposited data

How the results depend on the processing

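The count of 17 genes higher in TKO was 13 to 17 under the other filters, scalings, variance models, array weights and probe set rule, 15 without sex, 2 once the non-epithelial score was a covariate and 0 in females only. Leaving out 1 array gave 4 (without WT array 3) to 18 (without WT array 5). No alternative called a gene of the 35 lower. The median change stayed between 0.29 and 0.41. The count of genes whose arrays did not overlap, 15, was 14 to 18 in the other settings and 27 in females only, where 14.8% of all genes did not overlap in that direction. The sources used here do not say that the replicate numbers pair the embryos. The deviations of same-numbered arrays correlated at -0.085, -0.059, -0.13, 0.38 and -0.063, too few values to settle it. With the number as a replicate block the count was 14. Each of the 12 genes given on every array kept its direction in every setting; Cenpb (-0.019 without TKO array 3), Cenph (-0.0057 without WT array 3 and in females only) and Cenpq (-0.024 with the score), none past the test, did not. The cause of the drop under the score was not tested. In females only, 19 of the 35 had an unadjusted p under 0.05 in limma, all higher. Probe levels of different genes cannot be compared.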
